A study of Sus scrofa domesticus with 28 samples.

Results

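Late scar was compared with mid scar in pig skin. The late group held the 8 arrays whose titles begin with late, the mid group the 8 whose titles begin with mid, together 16 of the 28 arrays of the series. The late biopsies comprised 2 of pressure-treated hyperpigmented scar, 2 of pressure-treated hypopigmented scar, 2 of sham-treated hyperpigmented scar and 2 of sham-treated hypopigmented scar. The mid biopsies were made up in the same way, so treatment, pigmentation and animal were balanced between the phases. Below, the labels' words hyper and hypo stand for the hyperpigmented and hypopigmented scars. All biopsies came from a pair of juvenile castrated male red Duroc pigs, numbered 49 and 50, a breed used because its deep wounds form thick, dyspigmented scars. Each biopsy (Cy5) was hybridised with a universal pig reference RNA (Cy3) on its own 2-colour Agilent array, without dye swap. A number in the titles is higher in every late than in every mid biopsy, and the labels give it no unit. Pressure biopsies carried side letter R in their titles and sham biopsies side letter L, and hyper and hypo biopsies carried different title codes, so neither factor can be told apart from what these letters and codes mark. With 2 animals, p-values measure the spread between biopsies of these pigs and not between pigs.

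As background, a healing skin wound passes from inflammation through the laying down of matrix by fibroblasts and contractile myofibroblasts to a long phase of remodelling, in which collagen production and cell division slow and the epidermis matures above the new dermis. In raised scars this last phase is drawn out. A biopsy of scar holds epidermis, dermis, vessels, immune cells and, where it is deep, muscle, and in such bulk RNA fewer cells of a type and less RNA per cell cannot be told apart.

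The epidermal genes KRT2, a keratin of the upper epidermis, and DSG1, a cell junction protein of keratinocytes, were well above background on all 8 late and all 8 mid arrays. No member of the basal keratinocyte list could be measured by name. Late arrays had fewer detected probes. The number of probes well above background in Cy5 was 13707 at the lowest, 17696.5 at the median and 20523 at the highest in late scar, against 17509, 19559 and 21703 in mid scar. The groups overlapped, and the 2 lowest counts belonged to the late hypo biopsies 50L (13707) and 50R (14784). Paired by animal, treatment and pigmentation, the late array had fewer such probes in 7 of 8 pairs, with a mean difference of -2229 probes (exact two-sided sign-flip permutation test, p = 0.0156; the smallest p that 8 pairs allow is 0.00781). None of these pairs shared a slide, and the part of slide in these counts was not tested. In hyper scar the counts spanned 17421 to 20523 in late and 17897 to 21703 in mid arrays, and in hypo scar 13707 to 17972 in late and 17509 to 21321 in mid arrays.

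Over all features the phases did not form separate sets of arrays. The first principal component took 32.7% of the variance and the second 21.9%, and on both the late and mid arrays overlapped. The median correlation over features was 0.80 between pairs of late arrays, 0.79 between a late and a mid array and 0.79 between pairs of mid arrays. Phase accounted for 6.23% of the sum of squares in the fit, treatment for 5.04%, pigmentation for 4.88% and animal for 12.1%, where an equal split over all degrees of freedom would give each 6.67%.

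**Figure D1:**
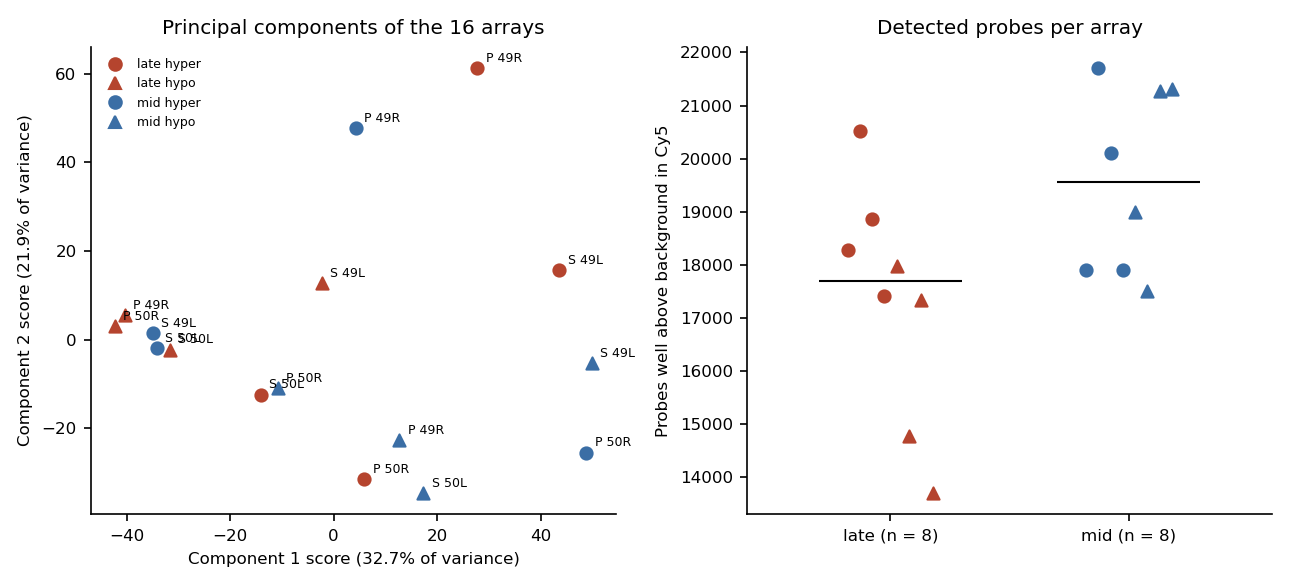
Scores of the 16 arrays on the first 2 principal components (left; P pressure, S sham, with animal and side) and the number of probes well above background in Cy5 per array (right; line, median). Late and mid arrays are mixed on both components, and the lowest probe counts are those of 2 late hypo arrays, 13707 and 14784.

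No gene passed the test between late and mid scar. Of 15936 features tested, 2396 of them with a gene symbol, 0 (0%) passed an adjusted p of 0.05 in limma's moderated test with treatment, pigmentation and animal in the fit, and the lowest adjusted p was 0.863. At an unadjusted p under 0.05 there were 603 features (3.78%), 316 (1.98%) higher and 287 (1.8%) lower in late scar. The differences, averaged over hyper and hypo scar, were small. They are given throughout as late minus mid in log2 of the biopsy-to-reference ratio, so that 1 is a doubling. Their median was 0.03 and the range from the 5th to the 95th percentile ran from -0.31 to 0.38. Only 22 features differed by 1 or more either way. In 36.1% of all features the difference had the same sign in hyper scar as in hypo scar. The 95% interval of a feature had a median half-width of 0.34, and for 14664 features (92.0%) it lay wholly between -1 and 1. This bounds the average change of their measured ratio to under a doubling or halving. For dim probes, kept when well above background on as few as 4 of the 16 arrays, it does not bound the change in RNA. In 3 features (0.0188%) all 8 late arrays lay above all 8 mid arrays, and in 0 features (0%) all lay below. None of these 3 has a gene symbol here (TC554195, TC605868 and one other, named after their values were seen). The same fit gave 2 calls for pigmentation and 15 for animal, 12 of them higher and 3 lower in animal 50.

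Since none passed, the 12 named genes of lowest unadjusted p are described; all had an adjusted p of 0.863. Among them were genes of vessels, of the interferon response, of skin immunity and of lipid and hormone metabolism. ACKR1, a receptor on venular endothelium that binds chemokines without signalling, read 1.64, 2.04 and 2.32 (lowest, median and highest) in late scar against 0.89, 1.34 and 1.86 in mid scar. The late value was higher in 8 of 8 pairs, though the groups overlapped (0.65 ± 0.14, difference ± SE, unadjusted p = 4.26e-04). IFIT1, an interferon-induced protein that binds viral RNA, read -0.09, 0.50 and 1.53 in late scar against -0.51, -0.07 and 0.15 in mid scar. It too was higher in 8 of 8 pairs (0.82 ± 0.19, unadjusted p = 6.83e-04), with a wide spread in late scar. SIRT1, a deacetylase that depends on NAD, was the other gene higher in 8 of 8 pairs, at 0.03, 0.41 and 0.78 in late scar against -0.20, 0.07 and 0.26 in mid scar (0.34 ± 0.11).

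CCL27, a chemokine made by keratinocytes that draws T cells to skin, had the largest difference of the 12. It read 4.0, 5.02 and 5.62 in late scar against 0.88, 3.39 and 4.76 in mid scar (1.66 ± 0.50, unadjusted p = 0.00464). The groups overlapped, and 1 mid array lay far below the others at 0.88. DIO2, the deiodinase that activates thyroid hormone in tissues, read 0.73, 1.31 and 2.76 in late scar against -0.34, 0.51 and 1.83 in mid scar (1.13 ± 0.36). It was well above background on 8 late and 5 mid arrays. IL6, an inflammatory cytokine, read 0.10, 0.78 and 1.80 in late scar against -0.26, 0.26 and 0.78 in mid scar (0.72 ± 0.24), with 7 of 8 pairs higher. TNXB, the matrix glycoprotein tenascin X, read -0.53, 0.63 and 1.21 in late scar against -0.96, -0.23 and 0.48 in mid scar (0.76 ± 0.23). NOP2, a methyltransferase of ribosomal RNA, was 0.40 ± 0.12 higher on average.

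Lower on average in late scar were 4 of the 12. SCD, the desaturase that makes monounsaturated fatty acids, read -0.92, -0.06 and 1.02 in late scar against 0.02, 0.47 and 1.03 in mid scar (-0.65 ± 0.17). ITGB1, the beta 1 chain of the integrins that bind cells to matrix, read -0.13, 0.48 and 1.49 in late scar against 0.70, 1.32 and 1.85 in mid scar (-0.62 ± 0.19). UFL1, a ligase that attaches the protein tag UFM1, was lower in 8 of 8 pairs (-0.30 ± 0.10). CHUK, a kinase of the NF-kappaB pathway, was also lower in 8 of 8 pairs (-0.30 ± 0.10), but it was well above background on only 1 late and 4 mid arrays, and only 1 of its 2 probes had that sign. The 16 arrays lay on 7 slides, 1 of them with 3 late and 0 mid arrays, so phase and slide cannot be fully told apart. Slides that held both phases numbered 4, 1 of them with 1 late and 3 mid arrays. None of the 4 paired a late with a mid array alike in animal, treatment and pigmentation. These genes were chosen on the same arrays, so their signs within slides are a description and no support: 9 of the 12 had the same sign on all 4 slides, IL6 and ITGB1 on 3 and TNXB on 2.

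**Figure D2:**
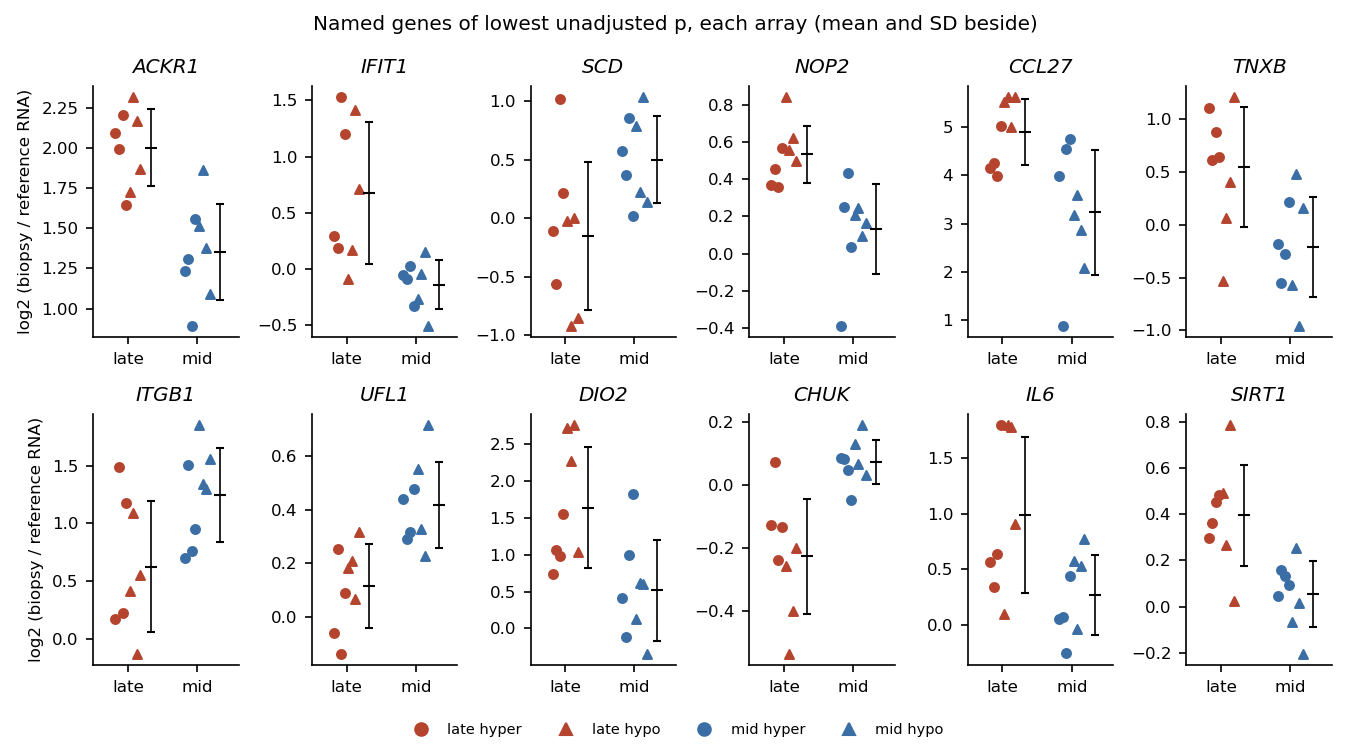
Log2 ratio of biopsy to reference RNA on each array for the 12 named genes of lowest unadjusted p, late left of mid, with the mean and SD (n = 8 each) beside the points. In ACKR1 the late arrays span 1.64 to 2.32 and the mid arrays 0.89 to 1.86, and no gene of the 12 separates the phases fully.

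Gene lists for skin cell types and scar processes gave 0 calls each, as did all features together, whose median was 0.03. Averaged over both kinds of scar, 12 of 13 members of the fibrillar collagen and matrix list had lower means in late scar. The median was -0.39, and 0 of the 13 had an unadjusted p under 0.05. Within hypo scar 12 of the 13 were lower (median -0.78), and within hyper scar 9 of the 13 were higher (median 0.25). ASPN, a small proteoglycan that binds collagen, read 1.92, 3.29 and 5.92 in late scar against 2.60, 4.28 and 5.73 in mid scar (-0.80 ± 0.40). TNC, the matrix glycoprotein tenascin C of healing wounds, differed by -0.84 ± 0.53, the large proteoglycan VCAN by -0.76 ± 0.42 and the collagen chain COL5A1 by -0.41 ± 0.29. All 4 measured genes of collagen processing also had lower means (median -0.37), SERPINH1, the collagen chaperone, by -0.47 ± 0.28 and FKBP10, a prolyl isomerase of collagen folding, by -0.35 ± 0.28. The median of these 4 was -0.91 within hypo and 0.19 within hyper scar. The arrays varied more than the phases differed: the mean of the matrix list, centred per gene, was -1.14, -0.43 and 1.43 in late arrays against -0.77, 0.18 and 1.19 in mid arrays, a difference of -0.36 with a within-phase SD of 0.84. The list's median was -0.90 in animal 49 and 0.12 in animal 50, and -0.12 without the mid pressure hypo biopsy 49R.

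Of 29 measured interferon response genes 26 had higher means in late scar (median 0.26), 6 of them at an unadjusted p under 0.05, beside 1.98% of all features in that direction, and 0 past the adjusted threshold. RSAD2, an antiviral enzyme, read 0.13, 0.37 and 1.91 in late scar against -0.53, -0.05 and 0.47 in mid scar (0.71 ± 0.25). The guanylate-binding proteins GBP2 (0.45 ± 0.18) and GBP1 (0.60 ± 0.27), which act against pathogens inside cells, were also higher on average. The list mean was -0.27, 0.02 and 0.94 in late arrays against -0.29, -0.17 and -0.00 in mid arrays. It was highest in the late sham biopsies 49L, at 0.94 in hyper and 0.67 in hypo scar, and at most 0.15 in the other 6 late arrays. These 2 arrays also had the highest late means of the phagocyte list, 2.06 in the hyper and 1.28 in the hypo biopsy, and of the macrophage and dendritic cell list, 1.0 and 0.37, whose part in the result was not tested. Among mid arrays, the sham hypo biopsy 49L had means of 2.02 and 0.99 for these 2 lists. The mid pressure hyper biopsy 50R had 1.57 and 0.95. The interferon mean was -0.04 in both of these mid biopsies. The median of the interferon list was -0.05 in pressure scar alone and 0.69 in sham scar alone, and 0.00 with median centring of each array in place of loess.

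**Figure D3:**
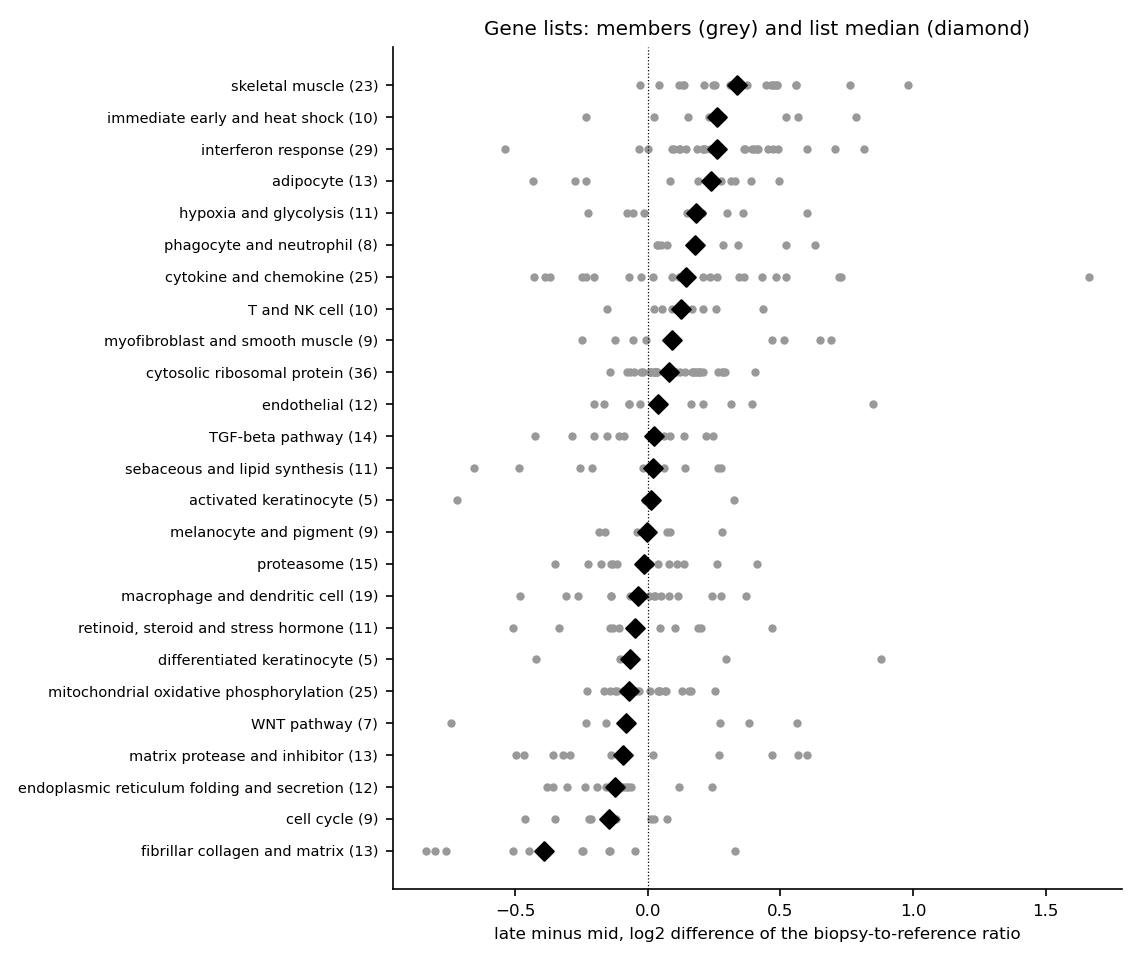
Late minus mid log2 differences of the measured members (grey) and their median (diamond) for each list with 5 or more measured members, the number measured in brackets. Medians run from -0.39 in the matrix list to 0.34 in the skeletal muscle list, and no member passed the adjusted threshold.

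Lists that mark other cells of the biopsy varied widely within each phase. Skeletal muscle genes had higher means in late scar in 22 of 23 cases (median 0.34), but the mean of the list reached 4.12 in the late pressure hyper biopsy 49R and 3.46 in the mid pressure hyper biopsy 49R, against -1.16 to 1.11 in the other late and -1.52 to 0.12 in the other mid arrays. The fast myosin MYH1 read -2.33, -1.12 and 3.45 in late scar against -3.15, -1.91 and 2.12 in mid scar (0.98 ± 0.70), and the slow myosin MYH7 differed by 0.44 ± 0.36. Without the late biopsy the list's median was -0.09, and without the mid biopsy 0.83. ACTA2, the smooth muscle actin of myofibroblasts and vessel walls, read -0.57, 0.19 and 2.46 in late scar against -0.48, -0.21 and 0.31 in mid scar (0.65 ± 0.27, unadjusted p = 0.032). Its highest value was in the same late biopsy 49R, without which the difference was 0.38. MYL9, the regulatory light chain of smooth muscle myosin, differed by 0.47 ± 0.19.

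Phagocyte genes were higher on average in 8 of 8 cases (median 0.18), with list means of -1.23 to 2.06 in late and -1.14 to 2.02 in mid arrays. Within hyper scar 7 of the 8 were higher (median 0.83), and within hypo scar 7 of the 8 were lower (median -0.21). Among them the chemokine receptor CCR1 differed by 0.63 ± 0.84. T and NK cell genes had higher means in 9 of 10 cases (median 0.12). Of 12 endothelial genes 7 were higher (median 0.04), and SELE, an adhesion molecule of inflamed vessels, differed by 0.85 ± 0.47. Fibroblast surface genes were lower in 3 of 4 cases (median -0.19), among them the cadherin CDH11 by -0.71 ± 0.37 and THY1 by -0.25 ± 0.21. Of 5 differentiated keratinocyte genes 2 were higher and 3 lower (median -0.07), with KRT2 at 0.88 ± 0.37.

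Averaged over hyper and hypo scar, pigment genes stayed close to 0. Of 9 members of the melanocyte list 4 had higher and 5 lower means in late scar (median -0.00). MC1R, the melanocortin receptor of melanocytes, differed by 0.28 ± 0.17 and RAB32, which helps sort cargo to melanosomes, by -0.18 ± 0.16. Their 95% intervals ran from -0.09 to 0.65 and from -0.51 to 0.15. The melanin enzymes TYR, DCT and TYRP1 differed by 0.00, -0.00 and -0.16. TYRP1 was well above background on 2 late and 3 mid arrays and TYR on 2 late and 2 mid arrays, so their values lie mostly near background. The 95% intervals of all 9 members lay between -1 and 1. Within hypo scar alone the list's median was 0.10, with members from -0.44 to 0.66. Within hyper scar alone it was -0.10, with members from -0.46 to 0.38, and neither fit called a member.

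Genes of cell growth and protein production showed small differences. TOP2A, a topoisomerase of dividing cells, was lower in 8 of 8 pairs, at -1.0, -0.66 and 0.02 in late scar against -0.81, -0.01 and 0.28 in mid scar (-0.46 ± 0.16, unadjusted p = 0.0136). It was well above background on 4 late and 7 mid arrays. Of 9 cell cycle genes 6 had lower means (median -0.15). Of 36 cytosolic ribosomal protein genes 30 had higher means (median 0.08), with RPS3 at 0.40 ± 0.16 and RPS13 at 0.28 ± 0.11. Within hypo scar 33 of the 36 were higher (median 0.26), and within hyper scar 26 of the 36 were lower (median -0.10). The direction over all 16 arrays turned with median centring, to a median of -0.40. Of 12 genes of protein folding and secretion 10 had lower means (median -0.12), among them RPN2 (-0.38 ± 0.15) and RPN1 (-0.30 ± 0.14), subunits of the enzyme that glycosylates new secretory proteins. SQLE, an enzyme of cholesterol synthesis, was lower in 8 of 8 pairs (-0.48 ± 0.17).

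The late minus mid difference was then set beside the other factors. Of the 6 fits to subsets of the arrays (each animal, each treatment, each pigmentation), 5 gave 0 calls: animal 49 (202 features at an unadjusted p under 0.05), animal 50 (408), pressure (735), sham (281) and hyper scar (189, 1.19%). The fit to hypo scar alone, 4 late against 4 mid arrays, gave 1329 calls (8.34%), 1150 higher (7.22%) and 179 lower (1.12%), with 4269 features (26.8%) at an unadjusted p under 0.05. It is the only one of the 6 with calls and is described for that reason, and it rests on few arrays and on the normalization. Whether the difference itself changed with pigmentation was tested in one fit over all 16 arrays: 0 of 15936 features passed (lowest adjusted p 0.184), with 2856 (17.9%) at an unadjusted p under 0.05. That count of 0 became 2354 without the mid pressure hyper biopsy 50R and was 0 without any other array. So the 16 arrays do not show, past the threshold, that hypo scar differs from hyper scar in its change.

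The calls in hypo scar were lost under several changes of background, fit or array. They were 0 with uncapped local backgrounds, 0 with the scanner program's processed signals and 0 with the authors' value table, and the hypo difference taken from the fit to all 16 arrays gave 1. With median centring there were 13 higher and 2250 lower, so the split between directions depends on how arrays are scaled. Leaving out the late sham biopsy 49L, the late sham biopsy 50L or the mid sham biopsy 50L also left 0. The count was 255 without the late pressure biopsy 49R and 762 without the late pressure biopsy 50R. The 2 lowest counts of detected probes were of late hypo arrays, as given above, and the part of this in the result was not tested. On the 2 slides that held both phases of hypo scar, 98.4% and 100% of the called features had the sign of the call, on arrays that are themselves part of the fit, so this supports nothing.

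The fit to hypo scar called 72 named genes higher and 45 lower in late scar, of 2396 features with a gene symbol. Those with the largest differences and the same sign in both animals are described, and these genes were chosen by this contrast. CCL27 read 5.01, 5.52, 5.61 and 5.62 in the 4 late hypo arrays against 2.07, 2.87, 3.19 and 3.59 in the 4 mid hypo arrays (2.51 ± 0.26, adjusted p = 0.0108 in limma). All late values lay above all mid values. GATA3, a transcription factor of epidermal differentiation, read 3.07, 3.48, 3.54 and 4.46 in late against 1.25, 1.46, 1.5 and 2.88 in mid arrays (1.86 ± 0.33). KLF4, a transcription factor of the epidermal barrier, read 2.34, 2.35, 3.16 and 3.40 in late against 0.70, 1.37, 1.5 and 1.95 in mid arrays (1.43 ± 0.19). For both, the 2 sets of values were separate. Of the 1329 called features only 247 had overlapping values. Separate values, here and in the genes below, thus mostly come with a call and add no support.

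The epidermal keratin KRT2 (1.73 ± 0.41), the keratinocyte protein SFN (1.40 ± 0.22) and the growth factor receptor EGFR (1.34 ± 0.23) were higher too, with overlapping values. So was DSG1 (1.05 ± 0.22). Of the 5 differentiated keratinocyte genes 2 were called higher (median 1.01), beside 7.22% of all features and 72 of the 2396 with a symbol. In the same list 1 of the 5, IVL, differed by -0.10. That list's mean per array spanned 0.18 to 1.04 in late and -1.0 to 0.62 in mid hypo arrays. The sizes depended on the processing: with uncapped backgrounds KRT2 differed by 0.35 and SFN by 0.27, and with median centring EGFR differed by 0.31 and MUT by 0.10. GATA3 (0.90) and KLF4 (0.82) did not pass with median centring either (adjusted p = 0.214 and 0.0858 in limma). Nor did MT1A (0.33), ADIRF (0.44) and RHOV (0.49), while CCL27 (1.71) and DIO2 (1.51) did. Of the lower genes, VCAN differed by -1.81 with uncapped backgrounds and -2.03 with median centring. The macrophage receptor CD163, at -1.34 in the main fit to hypo scar, differed by -0.71 and -2.32. With uncapped backgrounds no feature passed in hypo scar, VCAN included (adjusted p = 0.0615 in limma). Other called genes were DIO2 (1.94 ± 0.32, well above background on 2 of 4 mid arrays), BTG2, an inhibitor of cell proliferation (1.83 ± 0.16), the small GTPase RHOV (1.43 ± 0.33), the metallothionein MT1A, which binds metal ions (1.5 ± 0.35), ADIRF (1.48 ± 0.36) and the mitochondrial enzyme MUT (1.46 ± 0.20). Of lists that mark other cells, GZMB, a cytotoxic protease, was the only 1 of 10 T and NK cell genes called (1.1 ± 0.17, while 4 of the 10 had lower means). MYH1 was the only 1 of 23 skeletal muscle genes (1.20 ± 0.21) and the myelin gene MBP 1 of 2 Schwann cell genes (1.20 ± 0.24). Also called were KRT8, 1 of 4 sweat gland genes (0.85 ± 0.19), and DEFB1, 1 of 5 activated keratinocyte genes (0.91 ± 0.15). Of those 5 activated keratinocyte genes 2 had lower means, down to -0.84, and the list's median was 0.03. Of 3 mast cell genes 1, MS4A2, was called lower (-0.68 ± 0.16). The part of such cells in the result was not tested.

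VCAN read 0.49, 0.98, 1.39 and 1.66 in late hypo against 2.17, 2.50, 3.32 and 3.79 in mid hypo arrays (-1.82 ± 0.38, adjusted p = 0.0270 in limma). FBN1, the main protein of elastic microfibrils, read 0.52, 0.56, 0.73 and 0.79 in late against 1.46, 1.89, 2.35 and 2.59 in mid arrays (-1.43 ± 0.26). CDH11, a cadherin of fibroblasts, read 0.18, 0.52, 1.13 and 1.52 in late against 2.04, 2.04, 2.91 and 3.04 in mid arrays (-1.67 ± 0.33). In each of these 3 genes all late values lay below all mid values. DKK3, a secreted protein of the Dickkopf family (-1.60 ± 0.27), IGFBP6, which binds insulin-like growth factor (-1.36 ± 0.31) and ARL6IP5 (-1.30 ± 0.16) were also separate.

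Values overlapped for the collagen-degrading protease CTSK (-1.63 ± 0.35), the extracellular protein OLFML2B (-1.69 ± 0.42), the hyaluronan-binding protein TNFAIP6 (-1.38 ± 0.32, well above background on 2 of 4 late arrays), the macrophage scavenger receptor CD163 (-1.34 ± 0.33) and the lysosomal reductase IFI30 (-1.32 ± 0.30). THY1 (-0.90 ± 0.20), SCD (-0.99 ± 0.15) and TOP2A (-0.70 ± 0.16) were lower as well. CD163 was the only 1 of 19 macrophage and dendritic cell genes called. SCD was the only 1 of 11 sebaceous and lipid synthesis genes, and TOP2A the only 1 of 9 cell cycle genes. Of the matrix list 2 of 13 were called lower and 0 higher, with a median of -0.78. Of all 15936 features 1.12% were called lower and 7.22% higher, with a median of 0.06. Of the 2396 with a symbol, 45 were called lower and 72 higher.

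In hyper scar none of these 23 genes passed, and their differences ran from -0.43 (GATA3) to 1.45 (CTSK). The difference of VCAN was 0.30 ± 0.38 in hyper against -1.82 ± 0.38 in hypo scar, and the test of the change with pigmentation gave an unadjusted p of 0.00598 and an adjusted p of 0.185. For FBN1 it was 0.53 ± 0.20 in hyper against -1.43 ± 0.26 in hypo scar (unadjusted p = 4.93e-04, adjusted p = 0.185). The genes were chosen for their hypo differences, which enter the test of the change, so these p-values are a description and no support. CCL27 differed by 0.82 ± 0.68 in hyper against 2.51 ± 0.26 in hypo scar (adjusted p of the change 0.338). The hyper value rests on the mid pressure biopsy 50R, which read 0.88 against 3.99 to 4.76 in the other mid hyper arrays; without it the hyper difference was -0.09 ± 0.22. The matrix list had a median of 0.25 in hyper against -0.78 in hypo scar, and the differentiated keratinocyte list -0.46 in hyper against 1.01 in hypo scar. Of the 13 matrix genes 5 had an unadjusted p under 0.05 for the change with pigmentation, beside 17.9% of all features.

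**Figure D4:**
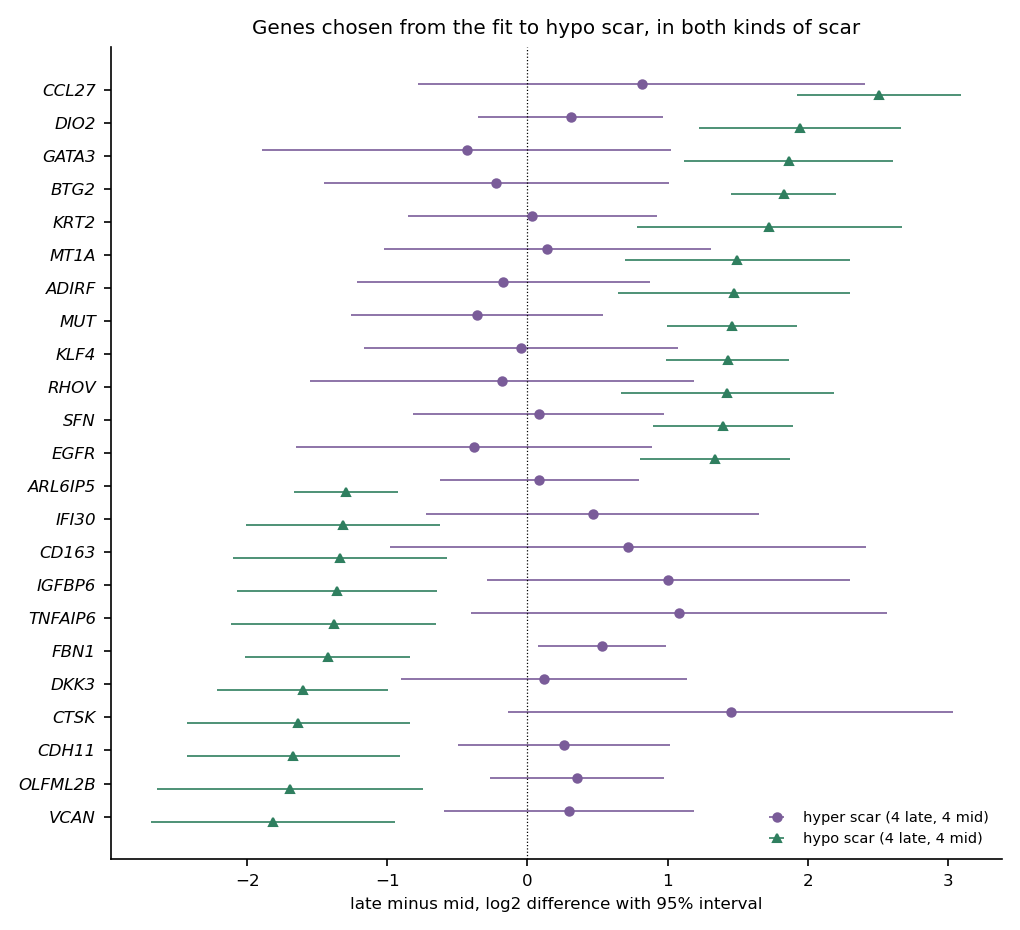
Late minus mid log2 differences with 95% intervals for 23 genes chosen from the hypo fit, in hyper scar (circles) and hypo scar (triangles), 4 late and 4 mid arrays each. The genes were chosen for their hypo differences, CCL27 (2.51) to VCAN (-1.82), so only the hyper values are free of that choice.

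**Figure D5:**
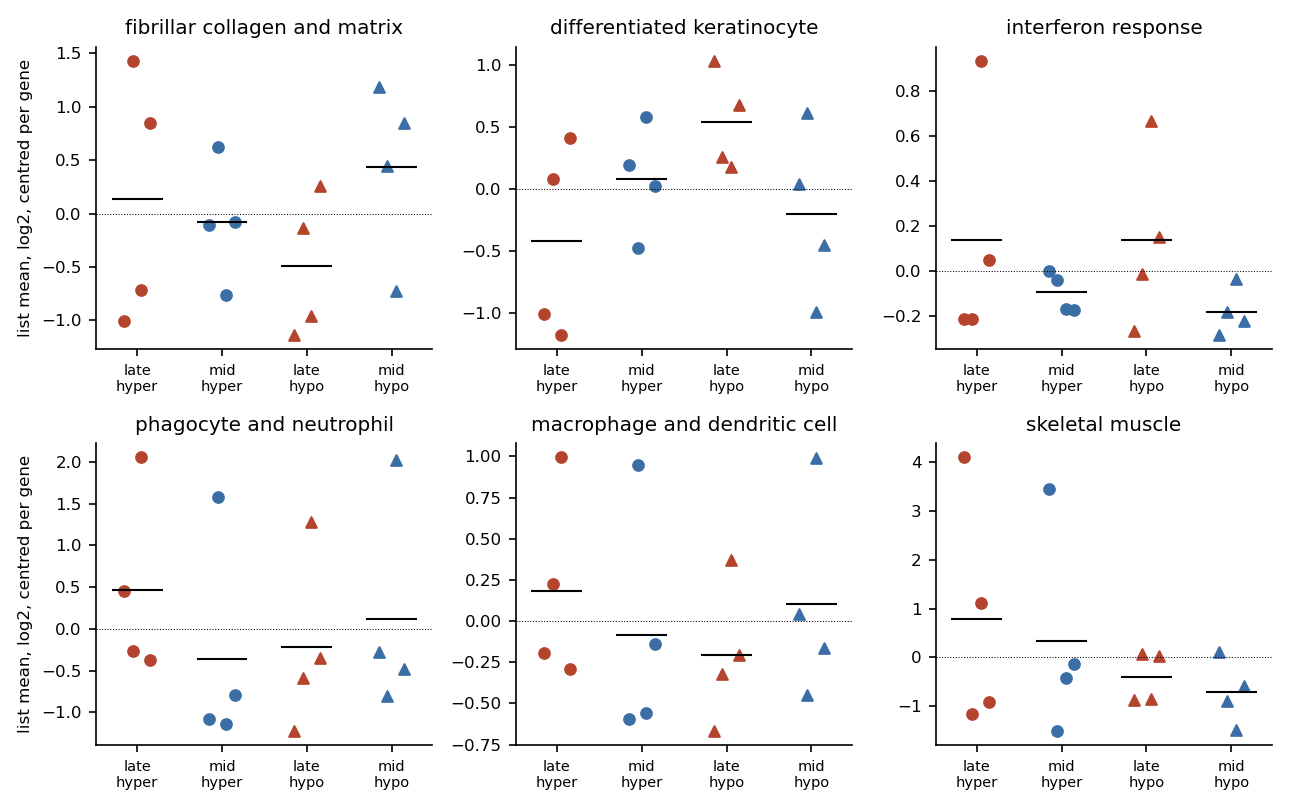
Mean of 6 gene lists on each array, in log2 centred per gene, late left of mid within hyper and within hypo scar (line, mean of 4 arrays). The skeletal muscle mean reaches 4.12 and 3.46 in one late and one mid hyper biopsy, and in the matrix list late hypo arrays span -1.14 to 0.26 and mid hypo arrays -0.73 to 1.19.

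Treatment and animal gave no call for a change of the late minus mid difference: 0 of 15936 features for treatment, with 223 (1.4%) at an unadjusted p under 0.05, and 0 for animal, with 208 (1.31%), in limma. IFIT1 differed by 0.25 in pressure scar and 1.38 in sham scar, which gave an unadjusted p of 5.75e-04 for the change with treatment and an adjusted p of 0.999.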

How the data were processed

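Cy5 carried the biopsy and Cy3 the reference RNA, per the labels. Per the submitters' processing notes, Agilent Feature Extraction 10.7.1.1 was used. The deposited scanner files give median spot and local background intensity on a linear scale, and the authors' deposited value table holds log2 values, equal within 0.001 to the ratio of the scanner's processed signals for nearly all probes. The number of arrays limits the precision.

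Local backgrounds were capped at the 99th percentile of each array and channel, a step taken over from earlier work on these data. Normexp (offset 50) and loess within arrays followed (limma 3.58.1, R 4.3.3), with outlier spots missing (0.455% of values, left out of the fit of that feature). Of 43603 probes, 21194 were well above background on 4 or more of the 16 arrays, and the brightest probe per gene or accession gave 15936 features. The fit held phase, treatment, pigmentation and animal (11 residual degrees of freedom), with Benjamini-Hochberg adjustment at 0.05. The fits to hyper and hypo scar held phase, treatment and animal. The code was tested on simulated data.

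Members and gene lists were chosen with earlier results of these data known. Genes were named by rule: of those called with a symbol and 1 sign in both animals, at most 12 in each direction, otherwise the 12 of lowest p, and at most 4 members per list. Of the genes this rule names, 1 is not reported here. Matching late and mid arrays did not all deviate together (4 of 8 pairs had a correlation over 0.1, range -0.57 to 0.66), and they come from the same animal but not from a stated shared site. Alternatives covered background, normalization, probe filter, covariates, slide and single arrays.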

Additional observations from a re-analysis of the deposited data

Results flagged for a closer look

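In 14 of 174 sets of values tested, 1 biopsy stood apart from the rest of its group by Dixon's criterion, which chance alone meets in about 5% of sets. The late pressure hyper biopsy 49R was highest for ACTA2 (2.46, next 0.64), MYH1 (3.45, next -0.34), and the means of the skeletal muscle (4.12, next 1.11), hypoxia and glycolysis (1.52, next 0.12) and mitochondrial (0.90, next 0.05) lists. The mid pressure hyper biopsy 49R was highest for MYH1 (2.12, next -1.37) and the skeletal muscle (3.46, next 0.12) and hypoxia and glycolysis (0.53, next 0.10) lists, and lowest for SQLE (-1.06, next -0.46). The late sham hyper biopsy 49L had the highest proteasome list mean (0.47, next 0.08), and the mid sham hypo biopsy 49L the highest SELE (2.30, next 0.98). Among 4 hypo arrays, the late sham biopsy 49L was lowest for CCL27 (5.01, next 5.52), and the mid pressure biopsy 50R highest for GATA3 (2.88, next 1.5) and MUT (-1.01, next -1.87).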

How the results depend on the processing

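The count of 0 calls held in 20 of 22 alternative settings and in all 16 fits without 1 array (309 to 1288 features at an unadjusted p under 0.05). All 28 arrays in the fit gave 1 (ENSSSCT00000017653, adjusted p = 0.0356) and hypo scar alone 1329. Unadjusted counts ran from 162 with uncapped backgrounds to 1900 with slide as a fixed block, apart from those 2. The replicate block of 8 matched pairs gave 0, as did the fit without the animal block. The change with pigmentation gave 0 to 2354 calls in fits without 1 array, the highest without the mid pressure hyper biopsy 50R. The change of the difference with treatment and with animal gave 0 throughout. In hypo scar, alternatives chosen after seeing the data gave 0 with uncapped backgrounds, 0 with processed signals, 0 with the authors' table, 2263 with median centring (13 higher, 2250 lower), 1 in one fit over all 16 arrays, and 0 to 1557 without 1 array. The replicate block of 4 matched pairs gave 1428.

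None of the 12 genes of lowest p changed sign in any alternative. In hyper scar alone, signs turned for VCAN (0.30), TNC (0.25), CDH11 (0.26), THY1 (0.40), MC1R (-0.10), RAB32 (0.078) and MYH7 (-0.078). In sham scar alone they turned for FKBP10 (0.17) and MYH7 (-0.11), in pressure scar alone for GBP1 (-0.19) and CCR1 (-0.19), in hypo scar alone for CCR1 (-0.20), and in animal 50 alone for CCR1 (-0.24), COL5A1 (0.38) and FKBP10 (0.11). Median centring, which moved the median of all features to -0.12, turned RPS13 (-0.23), RPS3 (-0.12) and MYH7 (-0.063). In hyper scar the CCL27 difference was -0.089 to 1.42 without 1 array, the lowest without the mid pressure biopsy 50R. Uncapped backgrounds turned KRT2 (-0.15) and slide as a fixed block CCR1 (-0.088). The causes were not tested. Dim probes, such as those of CHUK and TYRP1, are limited by signal over background.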
